A study of Mus musculus with 18 samples.

Results

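The reelin pathway was followed here through 7 genes in nuclei of the embryonic mouse forebrain: the ligand gene Reln, the receptor genes Vldlr and Lrp8, the adaptor gene Dab1, and Pafah1b1, Cdk5 and Cdk5r1, which act in neuronal migration beside or below reelin. They were chosen by symbol, and the 7 symbols each matched exactly 1 of the 55335 genes in the count tables.

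Reelin is a large glycoprotein secreted into the outermost zone of the developing cortex, above all by Cajal-Retzius cells. It binds the lipoprotein receptors VLDLR and APOER2 (the product of Lrp8) on migrating neurons and radial glia, which leads Src-family kinases to phosphorylate DAB1 inside the cell. Loss of reelin, of DAB1 or of both receptors is known to disturb the layering of the cortex, and the kinase CDK5 with its activator p35 (from Cdk5r1) and the dynein regulator LIS1 (from Pafah1b1) are needed for the same migration.

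Single-nucleus RNA sequencing was done on frozen whole forebrain of 9 embryos at E14, 3 each of WT, Het and KO genotype, in 2 runs (18 libraries), with males and females mixed in each genotype. All animals came from the MYT1L S710fsX line, which carries a frameshift in Myt1l, the gene of a neuronal transcription factor: WT animals had no mutant copy, Het animals 1 and KO animals 2. The mutation is present in every cell of the embryo from the start, so an effect within a class of nuclei cannot be told apart from one that reached it from other cells. The question put to each gene was which nuclei hold its RNA and whether that level differed in Het or KO from WT. Values are CPM, the share that the gene has of all UMIs (counted RNA molecules) of a class of nuclei in an animal, scaled to parts per 1000000, and since the length of a transcript enters them they are compared between classes and genotypes and not between genes. Over all nuclei, fewer nuclei of a class and less RNA per nucleus cannot be told apart. Both comparisons use the same 3 WT animals. Where animals of different genotypes are said not to overlap, the values are only described. No share of all genes is given for that, so it was not by itself read as a difference.

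Of 261143 barcodes 194376 nuclei were kept, 14825 to 26046 per animal, with a median of 2524 UMIs. They formed 39 clusters, of which 30 could be named by markers as 9 classes, written as "-like", and 9 clusters with 19.7% of nuclei stayed unnamed. Tests were run in the 6 classes that each animal filled with 20 nuclei or more: radial glia-like (29179 nuclei), excitatory intermediate progenitor-like (22431), excitatory neuron-like (44504), inhibitory progenitor-like (2188), inhibitory neuron-like (54674) and Cajal-Retzius-like (1991). Myt1l RNA itself was 1239 to 1257 CPM in the WT animals, 1265 to 1432 in Het and 1447 to 1583 in KO over all nuclei, which shows that the transcript of the frameshift allele was counted and does not check the loss of the protein. In 6 libraries of run 1 the genotype tag read WT although the title named Het or KO, and the titles were followed. Het 1 held 750 of the 751 diencephalic neuron-like nuclei. Before filtering, libraries of different animals in the same run shared 972 barcodes, and none was removed for being shared.

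Reln lies on the minus strand of chr5:21884454-22344702 (GRCm38, the assembly also called mm10), Vldlr on the plus strand of chr19:27216484-27254231, Lrp8 on the plus strand of chr4:107802261-107876840, Dab1 on the plus strand of chr4:103619359-104744844, Pafah1b1 on the minus strand of chr11:74673949-74724670, Cdk5 on the minus strand of chr5:24418241-24423530 and Cdk5r1 on the plus strand of chr11:80477023-80481184. The gene bodies of Reln, Lrp8 and Dab1 overlap 7, 2 and 2 other annotated genes, among them the antisense genes Lrp8os1 and Lrp8os2, and whether counting used strand is not given in the sources read, so these 3 carry that uncertainty. Promoter windows (250 bases before the annotated start, RefSeq, GRCm38.p6) were found for 5 of the 7 genes, 9 in all. RefSeq and the gene annotation place starts differently, and the Lrp8 window printed, 1 of 3 and the one that holds the motif, lies inside the Lrp8 gene body given above. Windows are shown for Reln, whose RNA marks the source cells, with the GC box GGGCGG in capitals, and for Lrp8, with the letters AAGTT, the core bound by the MYT family, in capitals on whichever strand they lay.
Reln, chr5:22344706-22344955, minus strand: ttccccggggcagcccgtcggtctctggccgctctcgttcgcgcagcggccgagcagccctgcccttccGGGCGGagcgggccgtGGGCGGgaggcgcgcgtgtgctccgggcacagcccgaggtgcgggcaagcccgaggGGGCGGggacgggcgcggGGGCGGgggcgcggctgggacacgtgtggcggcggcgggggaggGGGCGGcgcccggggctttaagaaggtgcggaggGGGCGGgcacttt
Lrp8, chr4:107802635-107802884, plus strand: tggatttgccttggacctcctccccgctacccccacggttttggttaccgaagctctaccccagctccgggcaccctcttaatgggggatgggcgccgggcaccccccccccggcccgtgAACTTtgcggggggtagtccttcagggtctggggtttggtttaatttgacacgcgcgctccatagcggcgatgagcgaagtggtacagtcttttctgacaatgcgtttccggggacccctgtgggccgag
The Reln window was 80% G and C and held GGGCGG 6 times, a motif present on either strand in 32.7% of 32851 such windows. AAGTT or its reverse complement was found in this Lrp8 window alone among the 9 windows of the 5 genes, and in 35.3% of all windows. These matches describe letters and not bound sites.

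Reln RNA was concentrated in Cajal-Retzius-like nuclei and spread at a far lower level over several kinds of neuron. In Cajal-Retzius-like nuclei the level was 19915, 20749 and 23470 CPM in the WT animals (replicates 1, 2 and 3, the order used throughout), 19495, 19731 and 20039 in the Het animals, and 19721, 21864 and 18482 in the KO animals. The ranges of the 3 genotypes overlap. Reln alone made up 2.02% of the UMIs of these nuclei, with a median of 58 Reln UMIs per nucleus (quartiles 24 and 100), and 20 of the 1991 nuclei held none. The cluster was named from markers that did not include Reln: 9 of 9 were detected, and Trp73, Lhx1, Ebf3, Lhx5, Ndnf and Nhlh2, genes known from Cajal-Retzius cells, were among its 10 leading genes. Another of the 10, Gm10475, lies inside the Reln gene body, so the clustering was not wholly blind to that locus.

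The other 5 classes followed in the order inhibitory neuron-like (289 CPM, mean of 9 animals), excitatory intermediate progenitor-like (195), excitatory neuron-like (186), inhibitory progenitor-like (39.6) and radial glia-like (29.3). Cajal-Retzius-like nuclei exceeded the next class by 6.15 ± 0.26 on the log2 scale (SD, n = 9 animals), in 9 of 9 animals (exact two-sided sign-flip permutation test, p = 0.00391, the smallest that 9 animals can give, adjusted p = 0.00911 over 35 pairs). Excitatory intermediate progenitor-like and excitatory neuron-like nuclei did not differ beyond their spread (0.09 ± 0.20, exact test, adjusted p = 0.264). At the bottom, inhibitory progenitor-like nuclei exceeded radial glia-like nuclei in 7 of 9 animals (adjusted p = 0.0438 by the same exact test). The shares of nuclei with a Reln UMI in both classes lay close to that in microglia-like nuclei, so no difference in Reln expression was read from this pair.

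**Figure D1:**
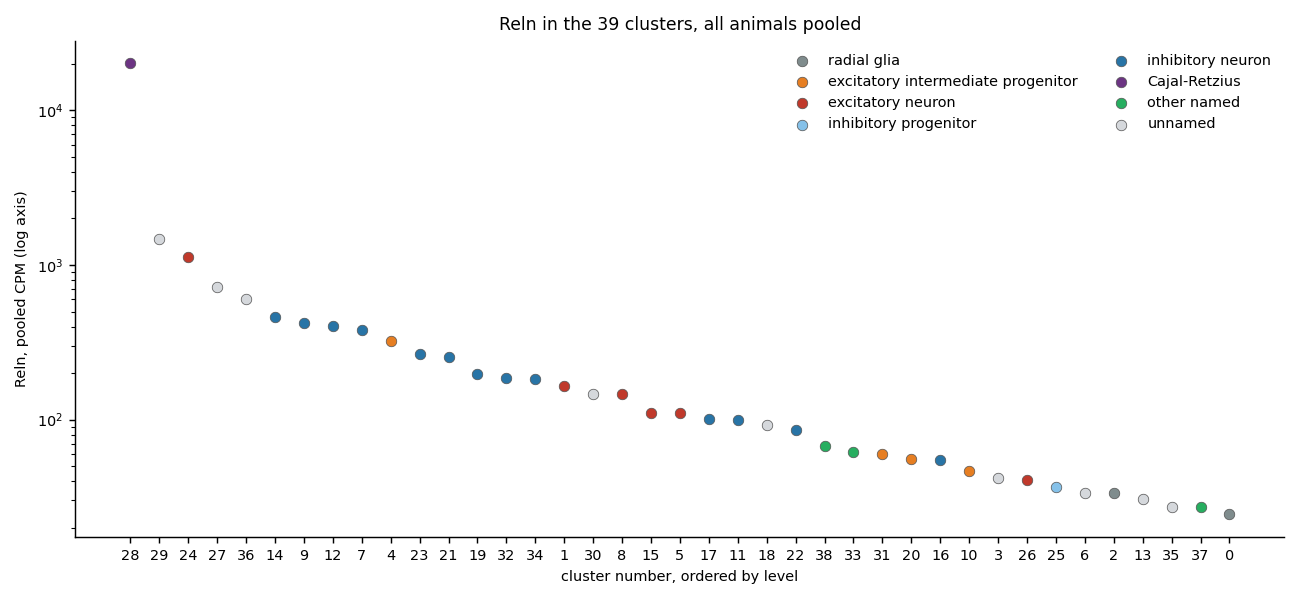
Reln level in each of the 39 clusters with all animals pooled, in CPM on a log axis, ordered from high to low and coloured by class. The Cajal-Retzius-like cluster 28 stands 13.7 times above the next cluster, and the lowest level among the 33 tested clusters is 24.5 CPM in radial glia-like cluster 0.

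Below the Cajal-Retzius-like cluster (20170 CPM with animals pooled) came 4 clusters between 603 and 1468 CPM. Cluster 29 (1468 CPM, 913 to 2396 over the 9 animals) stayed unnamed: 8 of 9 Cajal-Retzius markers were detected in it, but its leading genes included Samd3, Rasgrp1, Lhx5 and Sim1 and not Trp73. Cluster 24 (1133 CPM, 948 to 1333) was excitatory neuron-like and led by Cdh12, Adcy8 and Rasgrf1. Cluster 27 (722 CPM) was unnamed and led by Pappa2, Cpne8 and Col19a1. Cluster 36 (603 CPM), also unnamed, was led by Rspo2, Rspo1, Lmx1a and Wnt3a, genes known from the cortical hem, a place where Cajal-Retzius cells are born.

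Among inhibitory neuron-like clusters Reln was highest in cluster 14 (460 CPM, led by Prox1 and Adarb2), cluster 9 (422, led by Rarb, Ebf1 and Ikzf1), cluster 12 (401) and cluster 7 (381, led by Nxph2 and Maf), and lowest in cluster 16 (54.5, led by Lhx6 and Lhx8). Among excitatory intermediate progenitor-like clusters cluster 4, with Neurod1 among its leading genes, had 323 CPM against 46.2 in cluster 10, with Neurog2 among them.

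The share of nuclei with at least 1 Reln UMI was 99.0% in Cajal-Retzius-like nuclei (95% Wilson interval 98.4 to 99.4, counting error only), 24.1% in inhibitory neuron-like and 19.2% in excitatory neuron-like nuclei. In microglia-like nuclei, which should not express Reln, it was 5.84% of 291 nuclei at a median of 2118 UMIs, and in radial glia-like nuclei 5.98% at a median of 2458, so the radial glia-like share was read as background. Thinned to 800 UMIs per nucleus the shares were 96.6% in Cajal-Retzius-like, 12.2% in inhibitory neuron-like, 8.87% in excitatory neuron-like, 2.60% in inhibitory progenitor-like, 2.05% in radial glia-like and 1.86% in microglia-like nuclei (0 to 4.58% by animal). Per animal the thinned share in Cajal-Retzius-like nuclei ran from 94.98 to 97.84%, with KO 0.42 percentage points above WT (exact permutation test, p = 0.6).

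Cajal-Retzius-like nuclei were 1.02% of the nuclei and held 57.3% of the Reln UMIs. Inhibitory neuron-like nuclei held 17.8%, excitatory neuron-like nuclei 10.4%, excitatory intermediate progenitor-like nuclei 4.73%, and unnamed clusters 8.63%. Of the 3651 nuclei with 10 or more Reln UMIs, 1787 (48.9%) were Cajal-Retzius-like, 756 inhibitory neuron-like, 422 excitatory neuron-like and 303 in cluster 29.

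The Cajal-Retzius-like share of Reln UMIs was 54.1, 56.1 and 53.6% in the WT animals, 55.4, 56.1 and 58.3% in the Het animals, and 62.6, 59.1 and 60.2% in the KO animals. Each KO animal lay above each WT animal. The means differed by 6.03 percentage points (exact two-sided permutation test, p = 0.1, the smallest that 3 against 3 can give). Run 2 alone gave 5.59 points (exact p = 0.1) and run 1 alone, with 10 to 51 such nuclei per animal, 11.6 points with overlapping groups (exact p = 0.5). Without the upper limits on UMIs and genes the difference was 3.19 points (exact p = 0.3). These nuclei made up 0.728 to 1.15% of all nuclei in WT and 0.675 to 1.76% in KO.

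Over all nuclei Reln was 504, 350 and 426 CPM in the WT animals, 458, 383 and 531 in the Het animals, and 609, 312 and 445 in the KO animals. KO 1, the highest, had the largest share of Cajal-Retzius-like nuclei (1.76%), and KO 2, the lowest, the smallest (0.675%). The log2 fold change was 0.11 ± 0.21 (SE) in KO and 0.11 ± 0.21 in Het (edgeR, adjusted p = 0.979 and 1.00). The KO value turned to -0.17 without KO 1 and to -0.0039 without WT 2, and the Het value to -0.01 without WT 2 or without Het 3. For Reln in KO 7 of the 33 tested clusters had an unadjusted p below 0.05, the Cajal-Retzius-like cluster 28 not among them, where 6.42% of all gene and cluster pairs did. None was called (edgeR, lowest adjusted p = 0.393), against 0.264% of all pairs. The values were -0.46 to -0.91 on the log2 scale in clusters 10, 11, 16, 18, 22 and 23, and 0.53 in the hem-gene cluster 36. In inhibitory cluster 16 the animals did not overlap, with 54.9 to 84.7 CPM in WT and 41.7 to 43.3 in KO, and in the other 6 clusters they did. These KO values lie close to the 39.6 CPM of inhibitory progenitor-like nuclei, where detection of Reln was near that in microglia-like nuclei. The pooled level of cluster 10, given above, lies close to that value too. The part of background RNA in clusters 10 and 16 was not tested.

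Within Cajal-Retzius-like nuclei the fold changes of Reln were -0.09 ± 0.09 in KO and -0.10 ± 0.09 in Het (edgeR, adjusted p = 0.861 and 1.00). Without WT 3 they were -0.0069 and -0.023, and the KO value was -0.0086 without KO 3, -0.14 without WT 1 and -0.16 without KO 2. Run 2 alone gave -0.06 and -0.07, and run 1 held too few of these nuclei for a fit.

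The receptor genes had opposite places in the excitatory lineage. Vldlr, the receptor gene that has been tied to the stop of migration near the marginal zone, was highest in inhibitory neuron-like (84.9 CPM, mean of 9 animals) and excitatory neuron-like nuclei (76.4), then Cajal-Retzius-like (66.6), radial glia-like (35.8), inhibitory progenitor-like (25.5) and excitatory intermediate progenitor-like nuclei (14.9). The difference between inhibitory and excitatory neuron-like nuclei was small but held in 8 of 9 animals (0.15 ± 0.09 on the log2 scale, exact sign-flip test, adjusted p = 0.0144). Excitatory neuron-like and Cajal-Retzius-like nuclei did not differ beyond their spread at the threshold (adjusted p = 0.0578 by the same exact test). In microglia-like nuclei 0 of 291 held a Vldlr UMI, which allows a share of nuclei with a UMI of up to 1.03% (3 nuclei of the 291, counting error only).

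Within the neurons Vldlr reached 144 CPM in inhibitory cluster 14, 127 in excitatory cluster 26 (led by Il1rapl2, Hs3st2 and Unc13c) and 123 in excitatory cluster 8 (led by Rgs6, Hs3st3b1 and Dync1i1), against 34.4 in excitatory cluster 5, whose leading genes include Nrp1, Unc5d and Sema3c. The highest level, 179 CPM (116 to 228 over the animals), was in the unnamed hem-gene cluster 36.

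Lrp8, whose product APOER2 also binds reelin, was highest in excitatory intermediate progenitor-like nuclei, at 575, 672 and 641 CPM in the WT animals, 604, 648 and 673 in the Het animals, and 557, 729 and 683 in the KO animals. The next class, excitatory neuron-like, had 281 CPM (mean of 9 animals), with no overlap between the classes. The order went on with inhibitory neuron-like (209), Cajal-Retzius-like (195), inhibitory progenitor-like (151) and radial glia-like nuclei (120). The step between intermediate progenitor-like and excitatory neuron-like nuclei was 1.19 ± 0.13 on the log2 scale (SD, n = 9, exact sign-flip test, adjusted p = 0.00911), and each of the 5 steps in this order passed the test (adjusted p of at most 0.0285). Microglia-like nuclei with an Lrp8 UMI were 3.44%, against 23.1% of radial glia-like and 69.3% of excitatory intermediate progenitor-like nuclei.

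By cluster, Lrp8 was 87.4 CPM in radial glia-like cluster 0 and 166 in radial glia-like cluster 2, 955 in progenitor cluster 10, 587 in the cycling progenitor cluster 20 (led by Neil3, Cdc25c and Nusap1 among others), 552 in progenitor cluster 4, and 459, 265 and 191 in excitatory neuron-like clusters 5, 1 and 8. The highest and lowest of the 33 tested clusters differed 10.9-fold.

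Dab1, the adaptor phosphorylated on reelin binding, showed the reverse dip. It was highest in excitatory neuron-like nuclei (1665 CPM, mean of 9 animals, 1503 to 1846), then radial glia-like (887, 839 to 927), inhibitory neuron-like (414), Cajal-Retzius-like (355), excitatory intermediate progenitor-like (155) and inhibitory progenitor-like nuclei (56.1). Of these steps only that between inhibitory neuron-like and Cajal-Retzius-like nuclei did not pass (exact sign-flip test, adjusted p = 0.238). In the clusters named for Lrp8 it was 932 and 824 CPM in radial glia-like clusters 0 and 2, and 211, 121 and 91.1 in progenitor clusters 10, 20 and 4. Among excitatory clusters Dab1 was 248 CPM in cluster 5, 2053 and 2439 in clusters 1 and 8, and 2008 in cluster 15, which is added here. Excitatory cluster 26 was below both radial glia-like clusters, and its level is given further below. Excitatory cluster 24 and progenitor cluster 31 are not listed.

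Dab1 also divided the inhibitory neuron-like clusters. It was 51.9 CPM in cluster 7 (led by Nxph2, Maf and Nxph1) and 108 in cluster 16 (led by Lhx6 and Lhx8), which carry genes known from the medial ganglionic eminence, against 826 in cluster 14 (Prox1, Adarb2) and 1038 in cluster 21 (Gbx1, Pde3a, Adarb2). The share of nuclei with a Dab1 UMI at 800 UMIs was 53.4% in excitatory neuron-like, 45.2% in radial glia-like and 9.38% in excitatory intermediate progenitor-like nuclei. In inhibitory progenitor-like nuclei it was 3.53%, against 3.31% in microglia-like nuclei (0 to 11.8% by animal), so the inhibitory progenitor-like share was read as background. The highest level was in the unnamed cluster 27 (3019 CPM), which also held Reln.

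**Figure D2:**
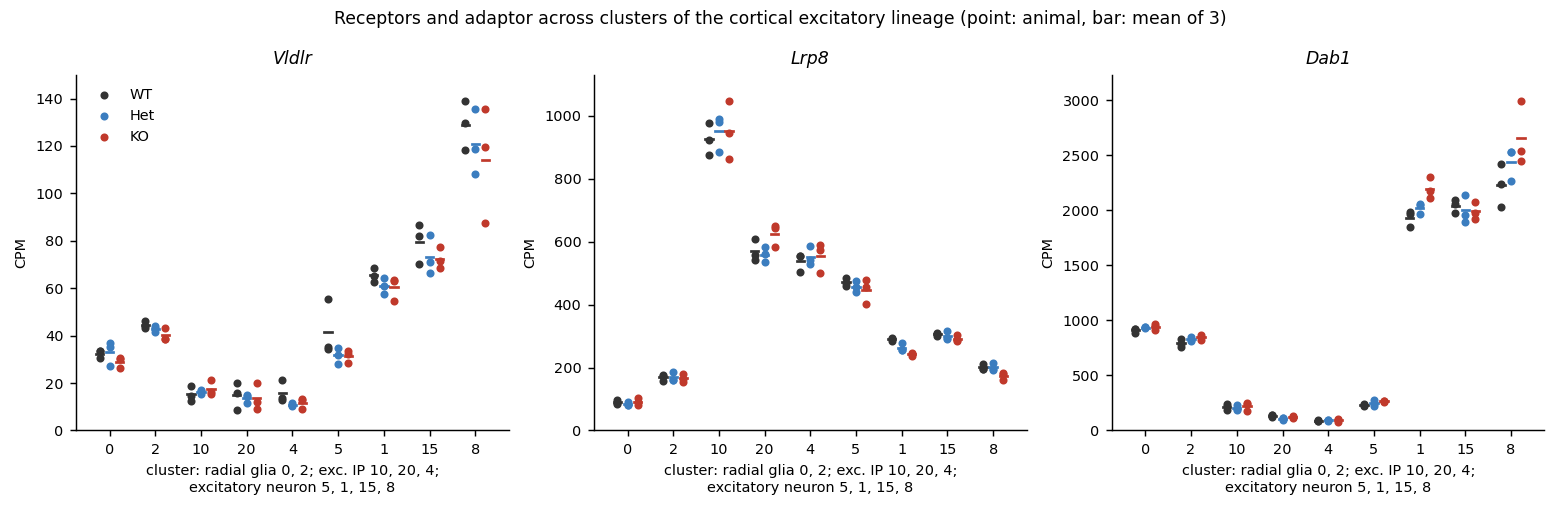
Vldlr, Lrp8 and Dab1 in CPM in 9 clusters of the excitatory lineage, with a point per animal and a bar at the mean of 3 animals for WT, Het and KO. Excitatory clusters 24 and 26 and progenitor cluster 31 are not shown. With animals pooled, Lrp8 peaks at 955 CPM in progenitor cluster 10 where Dab1 is at 211, and Dab1 is at least 1848 CPM in every animal in excitatory cluster 1, where Lrp8 is at 265.

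Pafah1b1, the gene of LIS1, which regulates dynein, was present at a similar level everywhere: from 337 CPM in excitatory neuron-like to 433 in inhibitory progenitor-like nuclei (means of 9 animals), and from 276 to 461 over the 33 tested clusters, a 1.67-fold range. Radial glia-like and Cajal-Retzius-like nuclei did not differ beyond their spread (0.03 ± 0.09 on the log2 scale, exact sign-flip test, adjusted p = 0.447), and excitatory neuron-like nuclei lay below inhibitory neuron-like nuclei, the next class, in 9 of 9 animals (0.11 ± 0.03, adjusted p = 0.00911 by the same exact test).

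Cdk5, the kinase gene, was at 23.0 to 29.1 CPM in the 6 classes, and 4 of its 5 neighbouring pairs did not differ beyond their spread (exact sign-flip tests, adjusted p from 0.595 to 0.781). The pair that passed was radial glia-like above excitatory intermediate progenitor-like nuclei (0.16 ± 0.12 on the log2 scale, adjusted p = 0.0186 by the same exact test). Cdk5r1, whose product p35 activates CDK5 in neurons, was 133 CPM in Cajal-Retzius-like, 115 in inhibitory neuron-like, 103 in excitatory neuron-like, 96.0 in inhibitory progenitor-like, 59.3 in excitatory intermediate progenitor-like nuclei and lowest, at 26.6, in radial glia-like ones. Over the tested clusters Cdk5 ranged 1.66-fold and Cdk5r1 6.48-fold, from 22.7 CPM in radial glia-like cluster 0 to 147 in inhibitory cluster 17. At 800 UMIs, 1.43% of microglia-like nuclei held a Cdk5 UMI (0 to 2.63% by animal) against 1.89 to 2.35% in the 6 classes. The 6 classes lie within that range by animal, so Cdk5 was not told apart from background. No difference in Cdk5 expression was read from the pair that passed. For Cdk5r1 the microglia-like share was 2.91% against 2.14% of radial glia-like nuclei, so the radial glia-like share for Cdk5r1 was read as background. The replicate 1 animals of each genotype stood apart for Cdk5r1, at 63.7 to 75.03 CPM over all nuclei against 83.4 to 98.9 in the other 6 animals.

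**Figure D3:**
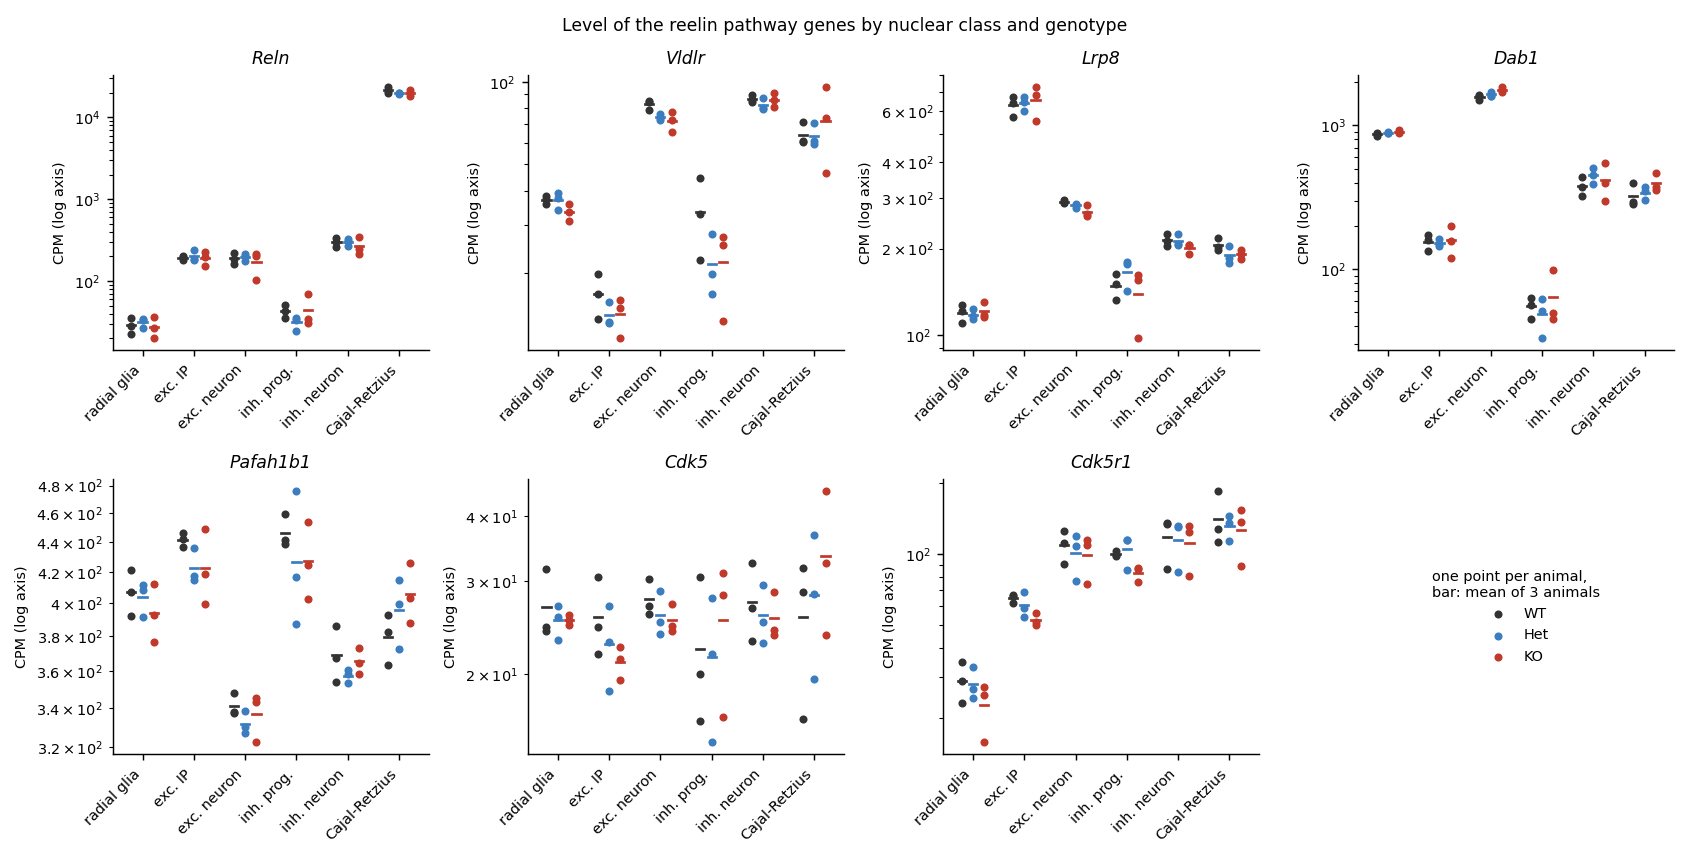
Level of each of the 7 genes in the 6 tested classes, in CPM on log axes with a different range for each gene, with a point per animal and a bar at the mean of 3 animals for WT, Het and KO. The classes separate more than the genotypes do for Reln, Lrp8 and Dab1, and neither separates clearly for Cdk5.

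Over all 7 genes, 25 of the 35 pairs of neighbouring classes differed (exact sign-flip tests over 9 animals, adjusted over the 35 pairs). The classes were built without these 7 genes but with genes that vary alongside them, so the tests say how repeatable each step was over animals. No share of such pairs for all genes is given, so the count was not read as particular to the members. Run 2 alone gave the same count and run 1 alone 14.

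Across the 39 clusters the genes whose pooled log2 levels ran most like each member, among 10551 compared, were Cpeb1, Samd3 and Lhx5 for Reln (Pearson r = 0.73 to 0.71), Caskin1, Dclk1 and Wnk3 for Vldlr (0.89 to 0.88), Numbl, Serping1 and Amn1 for Lrp8 (0.85 to 0.81), Ntm, Ncam2 and Wdr17 for Dab1 (0.81 to 0.75), Ddx42, Sbno1 and Morf4l1 for Pafah1b1 (0.93 to 0.92), Calm3, Epn2 and Arhgap32 for Cdk5 (0.67 to 0.63), and Scrt1, Tubb3 and Mir124a-1hg for Cdk5r1 (0.94 to 0.92). Between members r ran from -0.60 for Dab1 and Pafah1b1 to 0.58 for Vldlr and Dab1. It was 0.53 for Vldlr and Cdk5r1, -0.53 for Vldlr and Pafah1b1, and between -0.32 and 0.41 for every other pair. The clusters share libraries and animals, so these are descriptions.

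The second question was whether the mutation moved these genes. With edgeR, 0 of 42 tests of a member in a class was called in KO against WT (adjusted p below 0.05 and a log2 fold change beyond 0.2), where 0.193% of all gene and class pairs were called, and 0 of 42 in Het against WT, where 0% were. At an unadjusted p below 0.05 there were 4 in KO and 1 in Het, against 6.41% and 2.64% of all pairs, and DESeq2 also called 0 in both, against 0.379% and 0%. A fit with the replicate number as a block called 0 of 42 in each contrast too, where 1.59% of pairs were called in KO and 0.00823% in Het. Over all nuclei 0 of 7 was called in KO, as were 0% of all genes. In the 33 tested clusters 0 of 229 tests was called in KO, against 0.264% of all gene and cluster pairs, with 24 at an unadjusted p below 0.05 (6.42% of all pairs), and 0 of 229 in Het, against 0%, with 8 (3.36% of all pairs). The block called 0 of 229 in Het (0.0175% of all pairs).

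The animals with the same replicate number deviated together, and with the block 3 of the 229 cluster tests were called in KO, where 0.903% of all pairs were: Dab1 in excitatory clusters 1 and 8, and Lrp8 in cluster 1. A count this small cannot be told from that share, so it was not read as particular to the members. Cluster 1 is led by Abcc8, Cntn2 and Bcl6 among others, and cluster 8 by Rgs6, Hs3st3b1 and Dync1i1. They are described here because of these calls, after their values had been seen.

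**Figure D4:**
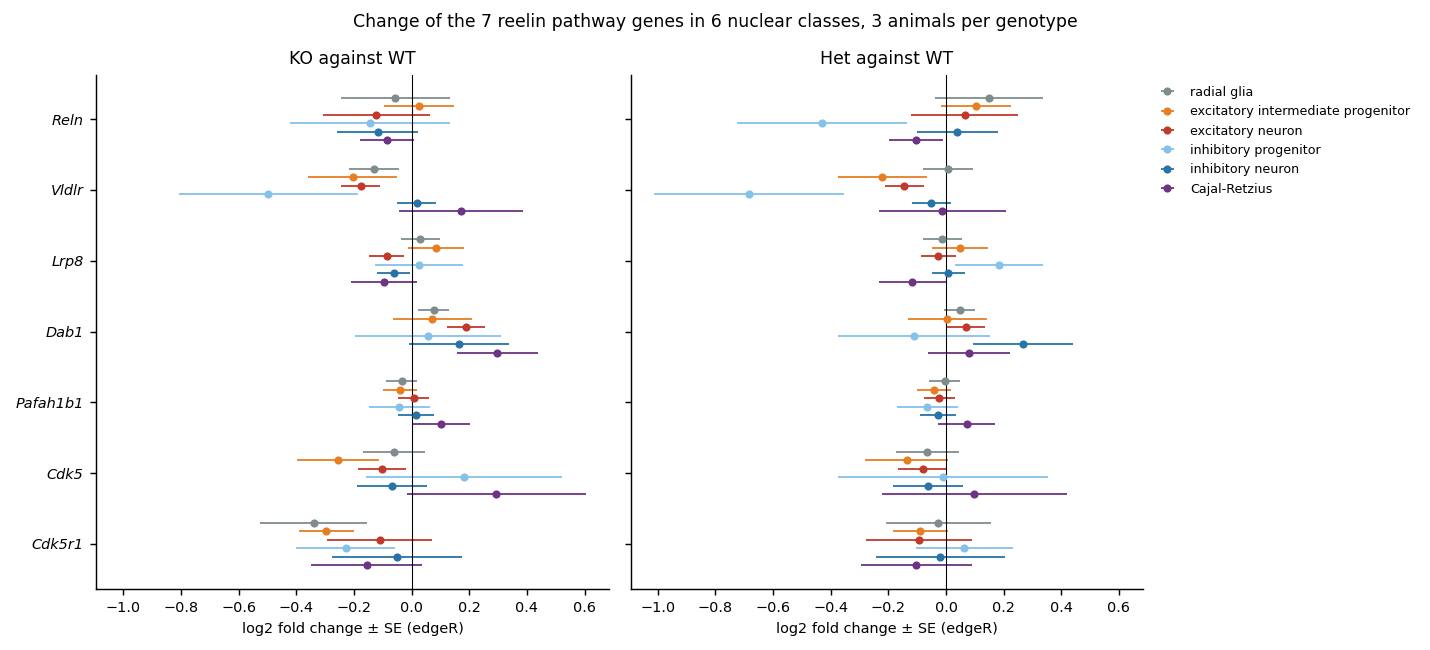
Log2 fold change with its SE (edgeR, 3 animals per genotype) of the 7 genes in 6 classes, for KO and for Het against WT. Dab1 lies at or above 0 in each of the 6 classes in KO, from 0.06 to 0.30, Vldlr is at -0.18 in excitatory neuron-like nuclei, and the widest bars are those of inhibitory progenitor-like and Cajal-Retzius-like nuclei.

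Dab1 in excitatory cluster 1 was 1848, 1986 and 1963 CPM in the WT animals, 1962, 2058 and 2050 in the Het animals, and 2112, 2299 and 2171 in the KO animals. The KO animals lay above the WT animals with the Het animals between or overlapping WT. The log2 fold change in KO was 0.21 ± 0.06 (SE, edgeR, adjusted p = 0.147) and with the replicate block 0.21 ± 0.05 (adjusted p = 0.0104), and run 1 and run 2 alone gave 0.14 and 0.24. In excitatory cluster 8 Dab1 was 2031, 2420 and 2238 CPM in WT, 2264, 2526 and 2526 in Het, and 2445, 2993 and 2535 in KO. There too the KO animals were above the WT animals, by a narrow gap. The fold change was 0.27 ± 0.10 (adjusted p = 0.251) and with the block 0.27 ± 0.06 (adjusted p = 0.00383), and it was 0.16 without KO 2 and 0.09 and 0.28 in runs 1 and 2 alone.

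Over the whole excitatory neuron-like class Dab1 was 1503, 1639 and 1603 CPM in WT, 1607, 1612 and 1710 in Het, and 1710, 1846 and 1759 in KO, again without overlap between KO and WT. Its fold change of 0.19 ± 0.07 had an adjusted p of 0.234 (edgeR) and, with the block, of 0.0171, but stayed below the 0.2 a call needs, and it was 0.06 in run 1 alone and 0.23 in run 2 alone. In Het it was 0.07 ± 0.07 (adjusted p = 1.00). The high-Dab1 clusters 1, 8 and 15 made up 34.9, 22.5 and 9.15% of this class in WT and 34.6, 21.4 and 11.6% in KO on average. The share of cluster 15 was 8.69 to 9.52% in WT and 15.02, 10.3 and 9.59% in KO, each KO animal above each WT animal, and the fold change of Dab1 within cluster 15 was -0.02 ± 0.07 (edgeR, adjusted p = 0.986). Cluster 26, with 571 CPM of Dab1, was 4.83 to 6.77% of the class in WT and 3.34 to 4.05% in KO, also without overlap. The part of these shares in the class result was not tested. Of 13 marker lists summed in this class, 2 separated the genotypes: 8 radial glia markers were at 138 to 151 CPM in WT and 133 to 137 in KO (3 of 8 with a higher mean in KO), and 6 inhibitory progenitor markers at 18.2 to 21.2 and 14.2 to 17.2 (0 of 6). In cluster 1 the only list that separated them was that of 6 erythroid markers, at 9.70 to 10.3 CPM in WT and 7.47 to 8.90 in KO (2 of 6 higher), and in cluster 8 none did. No marker of these 3 lists was at 0 there. An exact permutation test of 3 against 3 animals cannot go below 0.1, so these separations were not read as differences. The part of the 3 lists in the result was not tested.

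The background of KO calls in cluster 1 was 0.674% of 13796 genes with edgeR and 3.85% with the block, and in cluster 8 it was 1.34% and 5.44% of 12795. Fold changes of Dab1 over the 33 tested clusters in KO had a median of 0.12, with 27 above 0 and 5 of these at an unadjusted p below 0.05, where 6.42% of all gene and cluster pairs were in either direction. The clusters share the same 6 animals and are not replicates. Of the other members, Reln was below 0 in 23 of 33 clusters, Vldlr in 23, Lrp8 in 19 and Pafah1b1 in 21, and Cdk5 in 21 and Cdk5r1 in 25 of 32. No share of all gene and cluster pairs above or below 0 is given, so these counts of direction were not read further. In Cajal-Retzius-like nuclei the fold change of Dab1 was 0.30 ± 0.14 (edgeR, adjusted p = 0.56, 0.269 with the block), with 282 to 396 CPM in WT and 356 to 469 in KO, which overlap. It was 0.18 without KO 2, 0.47 without WT 2 and 0.19 in run 2 alone. Of the 13 marker lists in these nuclei, the 6 inhibitory progenitor markers separated the genotypes, at 20.04 to 32.9 CPM in WT and 8.90 to 19.8 in KO (0 of 6 with a higher mean in KO), and their part in the result was not tested. These are low levels in a class of 146 to 306 nuclei per animal, and the separation was not read as a difference.

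Lrp8 in excitatory cluster 1 was 293, 286 and 290 CPM in the WT animals, 277, 256 and 255 in the Het animals, and 238, 242 and 248 in the KO animals. The 3 genotypes did not overlap, and Het lay between the others. No share of all genes is given for such a separation, so it was not by itself read as a difference. The log2 fold change was -0.23 ± 0.06 in KO (edgeR, adjusted p = 0.104) and -0.23 ± 0.05 with the block (adjusted p = 0.0175), and -0.14 and -0.26 in runs 1 and 2 alone. In Het it was -0.12 ± 0.06 (adjusted p = 1.00, 0.708 with the block). In cluster 8 Lrp8 was 194 to 212 CPM in WT and 159 to 183 in KO, a fold change of -0.19 ± 0.08 (adjusted p = 0.352). Over the whole class it was -0.09 ± 0.06 (adjusted p = 0.62), with 288 to 295 CPM in WT and 260 to 283 in KO.

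Vldlr in excitatory neuron-like nuclei was 84.4, 79.0 and 85.5 CPM in WT, 73.6, 72.5 and 76.4 in Het, and 65.8, 72.5 and 77.8 in KO. The WT animals lay above those of both other genotypes. Its fold change of -0.18 ± 0.07 in KO had an adjusted p of 0.295 (edgeR, 0.0698 with the block) and was -0.05 in run 1 and -0.19 in run 2, and in Het it was -0.14 ± 0.07 (adjusted p = 1.00). In the small inhibitory progenitor-like class the Het value was -0.68 ± 0.33 (adjusted p = 1.00), on 146 Vldlr UMIs over all 9 animals, and it was -0.31 without WT 2 and -0.27 in run 2 alone.

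Cdk5r1 in excitatory intermediate progenitor-like nuclei was 62.0, 67.0 and 66.2 CPM in WT, 54.0, 58.7 and 68.9 in Het, and 51.2, 49.8 and 55.9 in KO. KO lay below WT, with a fold change of -0.30 ± 0.10 (edgeR, adjusted p = 0.999, 0.4 with the block), and -0.32 and -0.29 in runs 1 and 2 alone. Pafah1b1 stayed between -0.15 and 0.11 on the log2 scale in KO in the 33 tested clusters, with no unadjusted p below 0.05.

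A wider list of 63 gene symbols around the pathway was read beside the 7: proteases that cut reelin, other surface partners, kinases and adaptors acting on DAB1, the PI3 kinase branch with its cytoskeletal targets, the LIS1 and NDEL1 complex, and partners of CDK5. Among these symbols Rbx2 matched no gene in the count tables. In excitatory neuron-like nuclei 62 were tested, and 2 rose and 1 fell in KO (edgeR), against 0.825% of all 17934 genes called. Their median log2 fold change was -0.01, the same as over all genes. The list was chosen with earlier results of these data known, so its counts here and below were not read as an enrichment. Plat, the gene of tissue plasminogen activator, a protease that can cut reelin, was 9.76, 10.4 and 10.4 CPM in WT, 12.3, 12.9 and 12.9 in Het, and 16.6, 17.6 and 18.4 in KO. The genotypes did not overlap. Plat rose by 0.81 ± 0.09 on the log2 scale in KO (adjusted p = 0.00231), and in Het the value was 0.33 ± 0.09 (adjusted p = 1.00). In run 1 alone Plat was 0.54 higher without a call (adjusted p = 0.752) and in run 2 alone 0.87 higher (adjusted p = 0.00139).

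Pik3r3, a regulatory subunit of PI3 kinase, was 309, 320 and 307 CPM in WT, 330, 361 and 309 in Het, and 390, 388 and 383 in KO, and rose by 0.34 ± 0.07 in KO (edgeR, adjusted p = 0.0461). Mapt, the gene of tau, a microtubule-binding target of CDK5 and GSK3, was 424, 460 and 408 CPM in WT, 388, 377 and 384 in Het, and 327, 311 and 368 in KO, and fell by 0.34 ± 0.07 (adjusted p = 0.0408). Both separate KO from WT without overlap, and both calls lie close to the threshold. Of 18 alternatives, 10 lost the call of Pik3r3 and 12 that of Mapt. Both were lost in run 1 alone (0.27 and -0.30), in run 2 alone (0.35 and -0.32, adjusted p = 0.0642 and 0.0855) and without upper limits on UMIs and genes (adjusted p = 0.0656 and 0.0513). Pik3r3 was also lost without doublet removal (0.0515) and in 6 of the 9 fits that left out an animal, and Mapt with only the 6 WT and KO animals in the fit (0.105) and in 8 of those 9. DESeq2 called both, with Plat up and Dync1i1 down, where it called 1.51% of all genes.

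**Figure D5:**
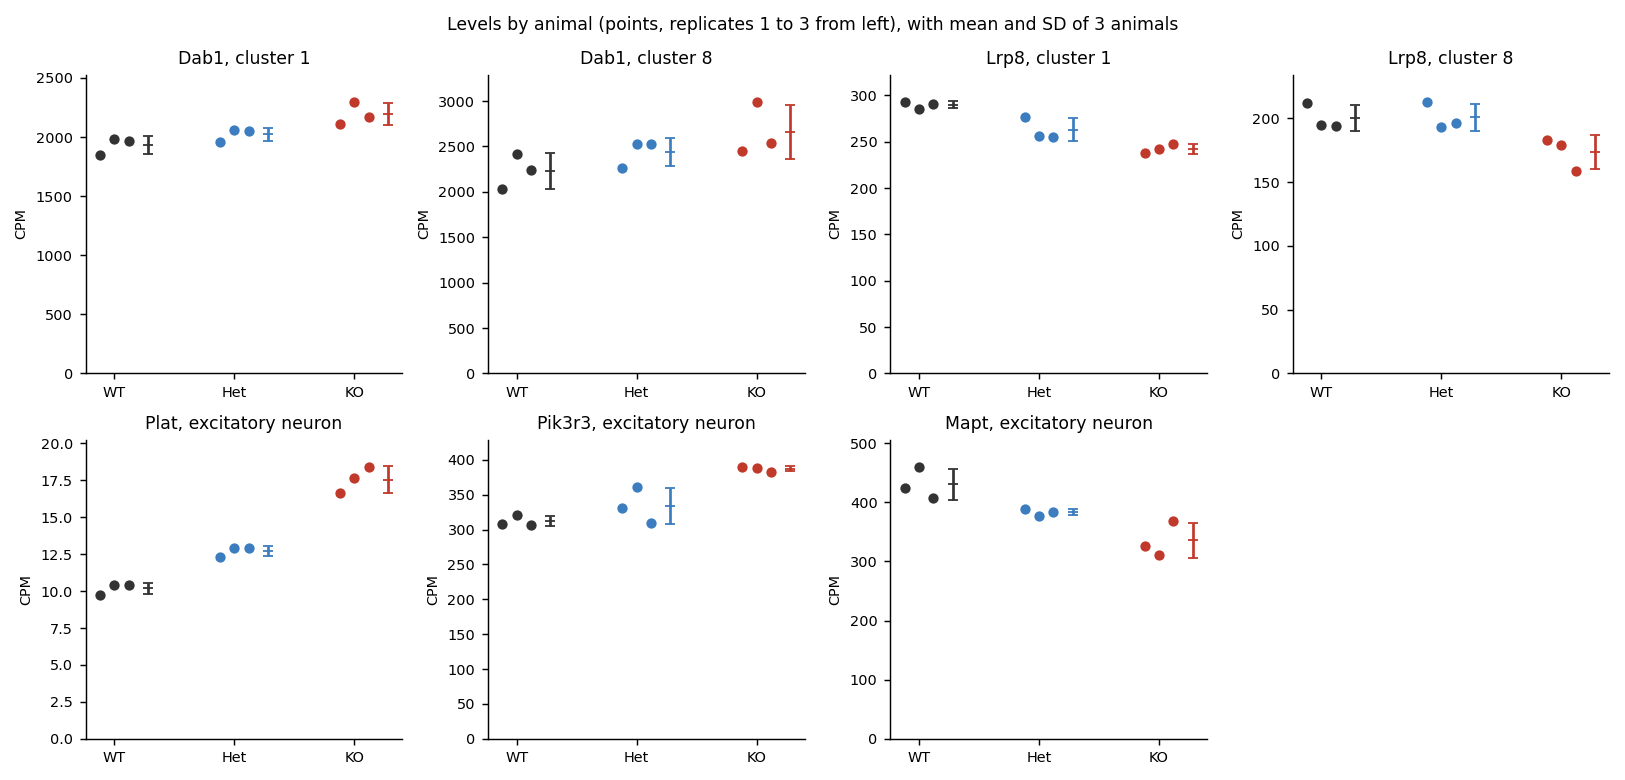
Dab1 and Lrp8 in excitatory clusters 1 and 8, and Plat, Pik3r3 and Mapt in excitatory neuron-like nuclei, in CPM per animal with the mean and SD of 3 animals, on axes that start at 0. Plat goes from 9.76 to 10.4 CPM in WT to 16.6 to 18.4 in KO, and Lrp8 in cluster 1 from 286 to 293 to 238 to 248.

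With the replicate block 4 of the 62 rose in excitatory neuron-like nuclei in KO (Pik3r3, Plat, Rap1b, Yes1) and 8 fell (Aplp1, Cfl1, Dync1i1, Efnb3, Fbxo41, Mapt, Pik3r1, Tuba1a), where 6.09% of all genes were called. In inhibitory neuron-like nuclei the block gave Pik3r3 and Plat up and Fbxo41 down (0.977% of all genes called, 0.0105% without the block, none of the 62 with edgeR without the block, Plat with DESeq2, which called 0.152% of all genes), and in Cajal-Retzius-like nuclei Dclk1 and Mapt down of 56 tested (0.76% of all genes called, 0.161% without the block, none of the 56 with edgeR without the block, both with DESeq2, which called 0.265%). Tuba1a, a tubulin gene, was called down by the block in excitatory intermediate progenitor-like nuclei (0.0198% of all genes called) and radial glia-like nuclei (0.00609%), and in neither by edgeR without it, and over all nuclei the block called Pik3r3 and Plat up and Dync1i1, Fbxo41, Mapt and Tuba1a down of 62 tested (0.564% of all genes called), and DESeq2 called Plat up (0.101%). In Het 0 of the list was called in any of the 6 classes with either fit (edgeR, background 0% and 0.00823%), with 12 of 354 at an unadjusted p below 0.05 without the block (2.64% of all pairs).

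By cluster, edgeR without the block called members of the wider list in KO in 7 of the 33 tested clusters, where 0.264% of all gene and cluster pairs were called. Of all genes, 0.674% were called in cluster 1, 1.4% in cluster 6, 0.198% in cluster 7, 1.34% in cluster 8, 3.52% in cluster 26, 0.335% in cluster 27 and 0.395% in cluster 30. Pik3r3 rose in clusters 1, 6, 8, 26, 27 and 30, by 0.30 to 0.84 on the log2 scale, and Plat in clusters 1, 6, 7, 8 and 26, by 0.85 to 1.81. Mapt fell in clusters 1, 6 and 26, by 0.31 to 0.42. Dync1i1, a dynein intermediate chain gene of the LIS1 complex, fell in clusters 1 and 6, by 0.46 and 1.01, and Yes1, a Src-family kinase, rose in cluster 6 by 0.51. Clusters 6, 27 and 30 are unnamed, and cluster 6 is led by Tfap2d, Tafa1 and Ppp1r14c among others.

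In excitatory neuron-like nuclei the sublists were not tested against each other. In KO the median log2 fold change was 0.19 over the 5 proteases, -0.04 over the 12 other surface partners, 0.00 over the 14 kinases and adaptors, -0.04 over the 12 genes of the PI3 kinase branch, -0.07 over the 9 genes of the LIS1 complex and 0.01 over the 10 CDK5 partners, with 1 call among the proteases and 2 in the PI3 kinase branch. The 7 members had a median of -0.10.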

How the data were processed

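The authors isolated nuclei from frozen E14 forebrain and sequenced them by combinatorial barcoding. The submitters' processing notes name mm10, Seurat 4.3.0, DESeq2 1.38.3 and Scanpy 1.12.0. The authors deposited estimated counts (expected counts) of UMIs per gene and nucleus, 6.70 to 8.71% of entries per library not whole. No source used here names the annotation release: 54587 of 55335 versioned identifiers match GENCODE vM21, 55154 without version (Lrp8 among the latter), which gave positions.

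Nuclei with 800 to 6000 UMIs and 300 to 3000 genes were kept where mitochondrial UMIs did not pass 1% and log genes over log UMIs reached 0.9, and the 5% with the highest Scrublet scores were removed per library, since its automatic threshold marked under 0.5% in 13 of 18 libraries. The study states more nuclei than these limits left. Clustering used scanpy 1.11.5 and igraph 0.11.9 with 50 components, 20 neighbours, Leiden resolution 1 and seed 0, and clusters were named from marker lists. It took 3000 variable genes without the 7 members, Myt1l, mitochondrial genes, Y-chromosome genes, Xist and Tsix. Other X-linked genes were not excluded. That the Cajal-Retzius-like name needs Trp73 among the 10 leading genes was set after seeing the data.

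Counts were summed per animal over runs, rounded, and tested with edgeR 4.0.16 (filterByExpr, TMM, quasi-likelihood F-test, Benjamini-Hochberg over all genes of a class or cluster) and with DESeq2 1.42.0. Fold changes are given for members with a call or an unadjusted p below 0.05 in a class, and for Reln in Cajal-Retzius-like and all nuclei, and from the wider list called genes are named. Class levels were compared as log2(CPM + 1). The study drew its E14 animals from several litters but the labels tie no replicate number to one, so pairing was judged from the data: deviations of same-numbered animals from their genotype means correlated at 0.227 to 0.708 in all nuclei, radial glia-like, excitatory and inhibitory neuron-like nuclei, against -0.597 to 0.207 for different numbers. The members and lists were chosen with earlier results of these data known. Depth was 42937500 to 73822600 UMIs per animal. The edgeR fit without the block was also run on simulated counts. These held no shared deviation of same-numbered animals, so that run does not bear on the calls with the block. No protein sequence was used here.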

Additional observations from a re-analysis of the deposited data

Results flagged for a closer look

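Lrp8 had fold changes of opposite sign in KO in different clusters. In cluster 6, an unnamed cluster led by Tfap2d and Tafa1, the log2 fold change was 0.17 ± 0.08 (SE, edgeR, adjusted p = 0.355), and each KO animal (357 to 396 CPM) was above each WT animal (323 to 349). In excitatory clusters 1, 8 and 26 and inhibitory clusters 7 and 9 each KO animal was below each WT animal, with fold changes of -0.23, -0.19, -0.36, -0.22 and -0.25. The clusters were picked for an unadjusted p below 0.05 (edgeR), which 6.42% of all gene and cluster pairs had in KO. No share of all pairs without overlap between KO and WT is given, so the lack of overlap was not read further. None of the 6 values passed the adjusted threshold, and the difference between the clusters was not tested.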

How the results depend on the processing

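Members called in KO in the 33 tested clusters numbered 0 with edgeR (0.264% of all pairs called in that fit), 4 of 231 without the filter on low counts (0.258%), and 3 with the replicate block (0.903%). With an animal left out they numbered 0 to 1 (1 without WT 2, KO 1 or KO 2). No share of all pairs is given for those fits, so 0 against 1 was not read as a difference. The replicate block changed no other call of a member. The number of neighbouring class pairs that differed was 14 in run 1 alone and 22 to 24 with an animal left out, and WT animals alone give no such count because 3 animals cannot reach the threshold. The Cajal-Retzius-like share of Reln UMIs, as a mean of animals, was 46.3% in run 1 alone and 61.2% with cluster 29 added to the class, an alternative chosen after seeing the data. With cluster 29 added, 70.0% of the nuclei had a Reln UMI at 800 UMIs and KO was 0.99 points below WT (-0.992). The log2 change of Reln over all nuclei in KO turned to -0.0039 without WT 2, to -0.17 without KO 1 and to -0.014 without upper limits on UMIs and genes, and in Het to -0.0079 without WT 2 and -0.0075 without Het 3. With an animal left out it ran from -0.17 to 0.32 in KO and from -0.0079 to 0.24 in Het. The cause was not tested. Of the other values 259 kept their direction and their side of the threshold, 23 fell short of it and 5 passed it. Run 1 alone could not be fitted in Cajal-Retzius-like nuclei, with too few of them. With 2188 and 1991 nuclei, the inhibitory progenitor-like and Cajal-Retzius-like classes had 7680 and 8685 genes that could be tested, against 17934 in excitatory neuron-like nuclei.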
